A study of Homo sapiens with 118 samples.

Results

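The upper end of the mocetinostat concentration range in HepaRG cells was examined here, by comparing the 3 libraries of the highest concentration, C5 (3.9 µM), with the 3 libraries of the third concentration, C3 (1.595 µM). The libraries were chosen by their group labels, and they were 6 of the 118 libraries of the series. HepaRG is an established human hepatic cell line, derived from a liver tumour, that was used as differentiated cells. In both groups the cells were exposed to mocetinostat for 72 h with daily renewal of the chemical, and replicates 1, 2 and 3 came from 3 batches of HepaRG cells. The C1 libraries (0.177222 µM, 3 libraries) served to tell features that changed further from features that changed only late, and C4 (2.5 µM, 3 libraries) lay inside the step. None of the 118 libraries was labelled as a solvent control, so a response already complete at C1 could not be seen. The series was made to find transcripts that classify histone deacetylase inhibitors in these cells.

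Histone deacetylases remove acetyl groups from histones and other proteins, and corepressor complexes bring them to promoters and enhancers. Mocetinostat is a benzamide that acts mainly on the class I enzymes. Differentiated HepaRG cultures hold hepatocyte-like and biliary-like cells, and the hepatocyte-like cells make plasma proteins, drug-metabolising enzymes and bile transporters under the control of a network of liver-enriched transcription factors. Expression was measured with TempO-Seq, an assay that ligates neighbouring detector oligos on a transcript in the lysate, then amplifies, sequences and counts the product. Each row of the table is 1 such probe, called a feature here, and levels are given as CPM, the counts scaled to a common library size.

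Total counts lay between 3601315 and 4668066 at C3 and between 3045318 and 3704165 at C5 (exact permutation test, two-sided, p = 0.3, where 3 against 3 libraries cannot give less than 0.1). C3 replicate 1 stood apart from its group: its log2 levels correlated with those of the other C3 libraries at 0.888 and 0.902, and with C2 replicate 2 at 0.92. C2 replicates 1 and 2 shared this pattern, and counts are therefore also given without these 3 libraries, a choice made after the data were seen. All 9 hepatocyte markers on the panel had counts, and their summed level was 15540 to 23750 CPM at C3 and 7125 to 8992 CPM at C5. The summed biliary markers lay at 297 to 448 CPM at C3 and 198 to 206 CPM at C5, with 11 of 15 markers reaching 5 counts in a library and CFTR at 0. Their members differed. Of 9 biliary features tested, 6 were lower at C5, but only ANXA4 (means of 143 and 48.9 CPM) and TM4SF4 (40.8 and 5.94 CPM) passed the thresholds given below. SOX9 had a log2 change of 0.02, and SOX4 one of 1.21 that did not pass. The stellate and fibroblast markers summed to 191 to 204 CPM at C3 and 147 to 164 CPM at C5. The endothelial markers summed to at most 6.80 CPM at C3 and 6.37 CPM at C5, with CLEC4G at 0. The leukocyte markers summed to 28.5 to 56.5 CPM at C3 and 34.6 to 51.7 CPM at C5, almost all of it from CD68 and CD14, with PTPRC, CD3E, NKG7 and LYZ at 0. In such bulk lysates, fewer cells of a type and less RNA per cell cannot be told apart, and the part of these shifts in the results below was not tested.

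Between C3 and C5 more features fell than rose, and many genes of hepatocyte function were among those that fell. Of 13065 features tested, 723 fell and 209 rose by at least 1.5-fold at an edgeR adjusted p under 0.05, which is 5.53% and 1.6% of the features tested and 7.13% in all. A further 9003 features had too few counts to be tested. The median log2 change over all features tested was -0.01. The falling features had a median log2 change of -1.58, and 217 of them fell more than 4-fold. The rising features had a median of 1.29, and 39 of them rose more than 4-fold. Without the 3 libraries that stood apart, 1087 features fell and 509 rose (7.55% and 3.53% of 14405 tested), and 686 of the 723 and 195 of the 209 were called again in the same direction. Leaving out any 1 of the 6 libraries left 440 to 613 falling and 93 to 122 rising features, and leaving out replicate 2 at every concentration left 77 and 7.

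The called features fell into 3 classes by what they had done between C1 and C3, where 1513 features (11.6% of those tested) were called. The C3 libraries are shared by both steps, so an error in them enters the steps with opposite signs. Of the 932 called features, 355 changed further in the same direction (275 falling and 80 rising), 549 changed only late, without a call between C1 and C3 (422 falling and 127 rising), and 28 turned back. In the features that changed further and fell, the median level relative to the C1 mean was -1.68 to -1.79 on the log2 scale in the C3 libraries and -3.50 to -3.53 in the C5 libraries. In the features that fell only late, it was -0.03 in C3 replicate 1, which stood apart, and -0.34 in both other C3 libraries. In the C5 libraries it was -1.59 to -1.66. These medians describe the features by the values that chose them. Of the 549 features that changed only late, 372 had a log2 difference of the same sign between C1 and C3. For 125 of these the unadjusted edgeR p was under 0.05.

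**Figure D1:**
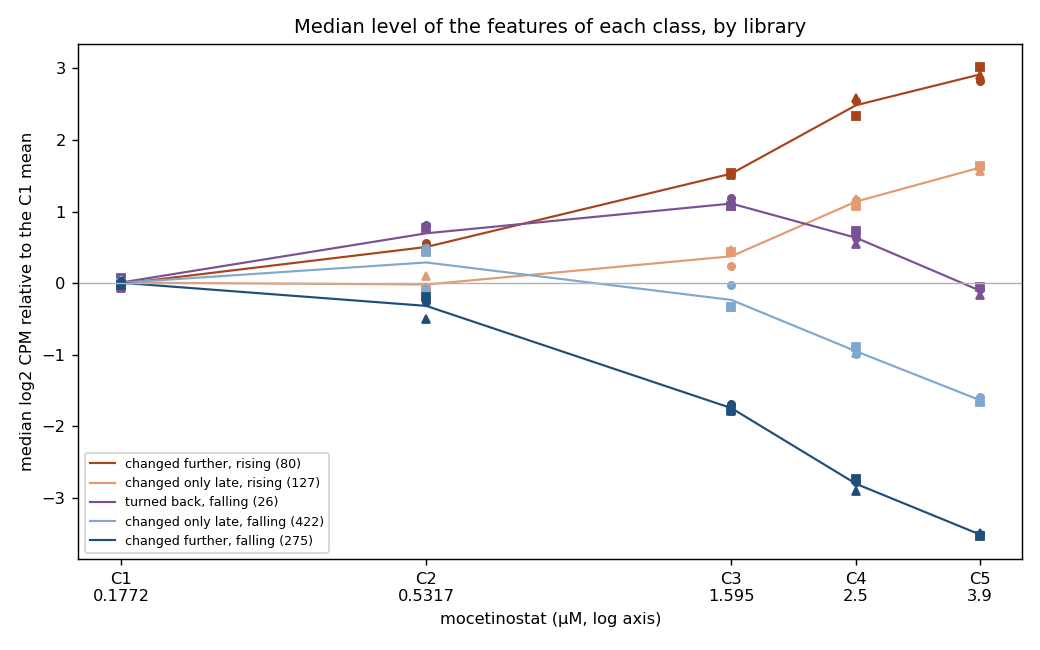
Median level of the features in each class, as log2 CPM relative to the C1 mean, against the mocetinostat concentration (µM, log axis); each point is 1 library (circle, replicate 1; square, replicate 2; triangle, replicate 3) and lines join the means of 3 libraries, with the number of features in brackets. The features that changed further and fell reached -3.50 to -3.53 at C5, and the 26 that rose and then fell stood at 1.07 to 1.19 at C3 and at -0.06 to -0.17 at C5.

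A missing call between C1 and C3 does not show that a gene was still, so the slope per doubling of concentration was compared directly between the late step (C3 to C5, 2.45-fold) and the early step (C1 to C3, 9-fold). The slopes differed for 181 features (1.39% of those tested), 174 with the more negative and 7 with the more positive slope late. Of the 549 features that changed only late, 92 were among them, 90 falling and 2 rising. Of the 355 that changed further, 44 were among them. All 26 features that rose and then fell were too, an outcome made likely beforehand by their calls in opposite directions. Of the 2 that fell and then rose, 0 were among them. For most of the features that changed only late, the difference between the slopes therefore did not pass the test. Without the 3 libraries that stood apart, the slopes differed for 520 features, 443 of them with the more negative slope late.

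TDO2, the enzyme that opens tryptophan breakdown in liver, had the smallest p among the features that fell only late and also differed in slope. Its level was 341, 454 and 483 CPM in the 3 C3 libraries and 20.6, 13.9 and 16.3 CPM in the 3 C5 libraries, a fall of 25.1-fold (log2 change -4.65, SE 0.27, edgeR adjusted p = 1.01e-07). At C1 the mean had been 544 CPM, and the early change of -0.35 (SE 0.23) did not pass the test (adjusted p = 0.378). The late slope was lower than the early slope by 3.49 log2 units per doubling (SE 0.23, adjusted p = 7.09e-07). ACSL4, which activates long polyunsaturated fatty acids, stayed at 1907 to 1980 CPM in the C3 libraries, above its C1 mean of 1497 CPM, and was at 443 to 482 CPM in the C5 libraries (log2 change -2.07, SE 0.19, adjusted p = 7.41e-06). AKR1B10, an aldo-keto reductase, was at 207, 122 and 204 CPM at C3 and at 9.94, 14.7 and 21.3 CPM at C5 (log2 change -3.54, SE 0.32, adjusted p = 8.04e-06). SLC2A2, the GLUT2 glucose transporter of hepatocytes, was at 24.7 to 37.6 CPM at C3 and at 0.765 to 2.02 CPM at C5 (log2 change -4.32, SE 0.41, adjusted p = 9.52e-06). In all 4 genes every C5 library lay below every C3 library. The same held for most falling features, of which 721 of 723 had no overlap between the groups. Over all features tested, 28% had no overlap in either direction. SLC2A2 had a mean of 61.7 CPM at C1 against 30.8 CPM at C3 (adjusted p = 0.0512), and without the libraries that stood apart the early falls of SLC2A2 and AKR1B10 passed the test (adjusted p = 0.0141 and 0.00615), so that both then counted as changed further.

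The plasma protein genes took a smaller part of the counts at C5 than at C3. They held 4.73% to 6.60% of all counts in the C3 libraries and 1.87% to 2.24% in the C5 libraries (exact permutation test, two-sided, p = 0.1, the smallest that 3 against 3 libraries allow). Of their 56 features, 22 fell and none rose (38 falling and none rising at an unadjusted p under 0.05, 27 and none with DESeq2), with a median log2 change of -1.21 against -0.01 over all features tested. Over all features tested, 5.53% fell and 1.6% rose. Of the 22 plasma protein features that fell, 20 had already fallen between C1 and C3. APOB, the scaffold of very-low-density lipoprotein, was at 2256, 2248 and 2158 CPM at C3 and 261, 341 and 344 CPM at C5, a fall of 7.04-fold (log2 change -2.82, SE 0.19, edgeR adjusted p = 2.31e-07). TF (transferrin) fell from 1258 to 1990 CPM at C3 to 537 to 658 CPM at C5, and ORM1, an acute-phase glycoprotein, from 1148 to 1506 CPM to 411 to 538 CPM. The ORM1 probe could also take reads of the near-identical ORM2. ALB, the albumin gene, was at 4214, 8919 and 7274 CPM at C3, lowest in replicate 1, and at 2735, 2928 and 1991 CPM at C5 (log2 change -1.42, SE 0.25, adjusted p = 0.00241).

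The 3 fibrinogen chains, which form the clotting protein made by hepatocytes, are encoded side by side on chromosome 4 and fell together. FGG, the gamma chain, was at 5689, 6275 and 5223 CPM at C3 and 991, 931 and 790 CPM at C5, a fall of 6.34-fold (log2 change -2.66, SE 0.16, edgeR adjusted p = 1.17e-07). FGB, the beta chain, was at 2043, 4785 and 4130 CPM at C3 and 928, 860 and 808 CPM at C5 (log2 change -2.08, SE 0.32, adjusted p = 0.000893). FGA, the alpha chain, which was looked up after the values of the other chains had been seen, was at 3510, 11314 and 8245 CPM at C3 and 1888, 1780 and 1328 CPM at C5 (log2 change -2.21, SE 0.57, adjusted p = 0.0278). In both FGA and FGB the lowest C3 library was replicate 1, the library that stood apart. Without the 3 such libraries the log2 changes were -2.57 for FGA, -2.39 for FGB and -2.69 for FGG. FGA counted as changed only late, and its early change of -1.09 (SE 0.55) did not pass the test (adjusted p = 0.246).

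The 250 bases before the start of the 3 fibrinogen genes are shown because these neighbours moved together, those of TDO2 because it fell late, and those of MT2A, described below, because it rose. The sequences are those of RefSeq (GRCh38.p14), 5′ to 3′ on the strand of the gene: FGB at chr4:154562730-154562979 (plus strand, the first of its 2 annotated starts), FGA at chr4:154590743-154590992 (minus), FGG at chr4:154612657-154612906 (minus), TDO2 at chr4:155903446-155903695 (plus) and MT2A at chr16:56608334-56608583 (plus). Capitals mark every match, on either strand, to TATAAA (the TATA box), CCAAT, TGACGTCA (the cyclic AMP response element), GGGCGG (the GC box), GTTAAT (part of the site of HNF1, a liver-enriched factor) and TGCGCNC or TGCACNC (cores of the metal response element); the last 3 were added after the data were seen.
FGB: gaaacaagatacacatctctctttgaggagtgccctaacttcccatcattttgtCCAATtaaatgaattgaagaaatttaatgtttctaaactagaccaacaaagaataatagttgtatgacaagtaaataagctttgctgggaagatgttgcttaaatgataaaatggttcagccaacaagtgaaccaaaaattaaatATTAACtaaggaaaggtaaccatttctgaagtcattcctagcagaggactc
FGA: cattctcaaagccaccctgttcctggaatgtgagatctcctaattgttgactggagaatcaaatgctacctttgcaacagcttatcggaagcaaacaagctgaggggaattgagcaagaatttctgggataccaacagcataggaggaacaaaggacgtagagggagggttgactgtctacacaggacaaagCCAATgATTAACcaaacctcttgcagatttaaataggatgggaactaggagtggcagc
FGG: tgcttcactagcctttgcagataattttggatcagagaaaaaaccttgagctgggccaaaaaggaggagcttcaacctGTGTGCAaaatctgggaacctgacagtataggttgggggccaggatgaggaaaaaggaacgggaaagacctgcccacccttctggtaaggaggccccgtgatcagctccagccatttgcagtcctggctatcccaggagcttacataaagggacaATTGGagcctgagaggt
TDO2: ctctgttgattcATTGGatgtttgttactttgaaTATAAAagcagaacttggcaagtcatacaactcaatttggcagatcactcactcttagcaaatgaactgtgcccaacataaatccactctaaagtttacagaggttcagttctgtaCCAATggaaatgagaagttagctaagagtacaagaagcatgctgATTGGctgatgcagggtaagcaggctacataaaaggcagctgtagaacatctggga
MT2A: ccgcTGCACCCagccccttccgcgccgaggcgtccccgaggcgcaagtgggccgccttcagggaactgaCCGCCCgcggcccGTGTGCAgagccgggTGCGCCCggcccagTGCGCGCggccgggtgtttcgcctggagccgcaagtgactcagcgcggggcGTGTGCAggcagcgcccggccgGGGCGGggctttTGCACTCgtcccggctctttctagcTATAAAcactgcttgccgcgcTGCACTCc

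FGB and FGA each held 1 match to GTTAAT, which began 51 and 52 bases before the start, and FGG held none. MT2A held 7 matches to the metal response element cores, 2 GC boxes and a match to TATAAA that began 29 bases before the start. The match to TATAAA in TDO2 began 216 bases before the start. Of 540 symbols with a falling feature and a promoter in the table, 14.8% held GTTAAT in these 250 bases, against 1.94% of 155 with a rising feature, 5.75% of 9401 tested symbols and 7.5% of all 27305 promoters. The share was 21.6% among the falling symbols that changed further and 11.6% among those that fell only late. TATAAA was in 17.2% of the falling, 16.1% of the rising and 8.82% of the tested symbols. GGGCGG was in 60.6% of the falling, 74.2% of the rising and 72.3% of the tested symbols. CCAAT was in 41.9%, 51.6% and 42.4%, TGACGTCA in 0.926%, 5.16% and 3.18%, and the metal response element cores in 35%, 39.4% and 39.2%, in the same order. These shares describe letters in a window, and no binding was measured.

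Enzymes of hepatic metabolism fell as widely as the plasma proteins, above the 5.53% falling over all features tested. Of 59 features of this list, 24 fell and none rose (37 falling and none rising at an unadjusted p under 0.05, 27 and none with DESeq2), with a median log2 change of -1.56. ADH1B, which oxidises ethanol, was at 182, 265 and 201 CPM at C3 and 19.4, 19.0 and 11.6 CPM at C5, a fall of 12.9-fold (log2 change -3.69, SE 0.23, edgeR adjusted p = 1.31e-07), after a mean of 2008 CPM at C1. The 2 ADH1A probes fell by 3.64 and 3.35 on the log2 scale, and reads of these near-identical genes may not be fully separated. ADH4 was among the largest falls: it was at 7.96 to 15.5 CPM at C3 and at most 3 counts in every C5 library, at least 16.1-fold lower. AGXT, the peroxisomal enzyme that detoxifies glyoxylate, fell by 2.40 on the log2 scale, to 7.39 to 13.7 CPM. TAT, which starts tyrosine breakdown, was at 52.7, 37.0 and 64.3 CPM at C3 and 0.51, 3.29 and 0.593 CPM at C5 (log2 change -5.07, SE 0.69, adjusted p = 0.000291). TAT had no call between C1 and C3 (log2 change -1.22, adjusted p = 0.153), but without the libraries that stood apart its early change of -1.30 passed (adjusted p = 0.0136). CYP4B1, a cytochrome P450, was at 4.15 to 5.35 CPM at C5, and at C3 it was at 196 CPM in replicate 1 and 43.4 and 44.3 CPM in the others. Its log2 change of -4.35 was -3.26 without the libraries that stood apart, and its early change then passed the test too (adjusted p = 1e-05). The other large falls were ACTR3C, CLMP and P4HTM, which had at most 3 counts in every C5 library and were at least 7.19-fold, 15.2-fold and 7.66-fold lower there. These bounds rest on group means, and P4HTM was at 10.4, 5.74 and 2.30 CPM at C3 and 0, 0 and 0.889 CPM at C5. P4HTM lost its call in 5 alternative settings and ACTR3C in 2.

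Transporters, lipid genes and liver transcription factors followed. In the same step 5.53% of all features tested fell and 1.6% rose. Of 29 transporter features, 12 fell and none rose (16 and none at an unadjusted p under 0.05, 14 and none with DESeq2), among them ABCC2, which exports conjugates into bile (36.8 to 49.7 CPM at C3, 3.26 to 9.43 CPM at C5), ABCC3 and ABCC6. Of 22 features for fatty acid oxidation, 7 fell and none rose (11 and none, 8 and none), led by PPARGC1A, a coactivator of oxidative metabolism, at 111 to 141 CPM at C3 and 37.6 to 48.2 CPM at C5 (log2 change -1.51, SE 0.22, edgeR adjusted p = 0.00057). PPARGC1A had stood at 127 CPM at C1, whereas FABP1, the liver fatty acid carrier, had lost most of its level before C3 and fell by 1.88 more on the log2 scale. CIDEC, a lipid droplet protein, fell from 71.4 to 87.6 CPM to 2.96 to 6.07 CPM, which is 17.8-fold, and THRSP, a lipogenic nuclear protein, from 10.2 to 27.7 CPM to 0.253 to 1.48 CPM. Of 28 transcription factor features, 7 fell and none rose (10 and none, 8 and none). Of the 7, 5 fell only late, as did 422 of all 723 falling features. The 7 included NR5A2, a regulator of bile acid genes (54.8 to 113 CPM at C3, 16.9 to 28.0 CPM at C5), NR1H3, the oxysterol receptor LXR alpha (9.22 to 9.99 CPM and 0.758 to 1.27 CPM), CEBPB (237 to 319 CPM and 94.3 to 132 CPM) and PROX1 (26.3 to 37.0 CPM and 10.6 to 13.9 CPM). Of 27 features of cholesterol synthesis and uptake, 3 fell and none rose (8 and none, 6 and none), among them HMGCS1 and MSMO1, enzymes of the synthesis pathway, of which MSMO1 lost its call in 7 alternative settings. HMGCS1 was at 828 CPM in C3 replicate 1 and at 333 and 367 CPM in the other C3 libraries, against 145 to 168 CPM at C5, and it counted as changed further without the libraries that stood apart.

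**Figure D2:**
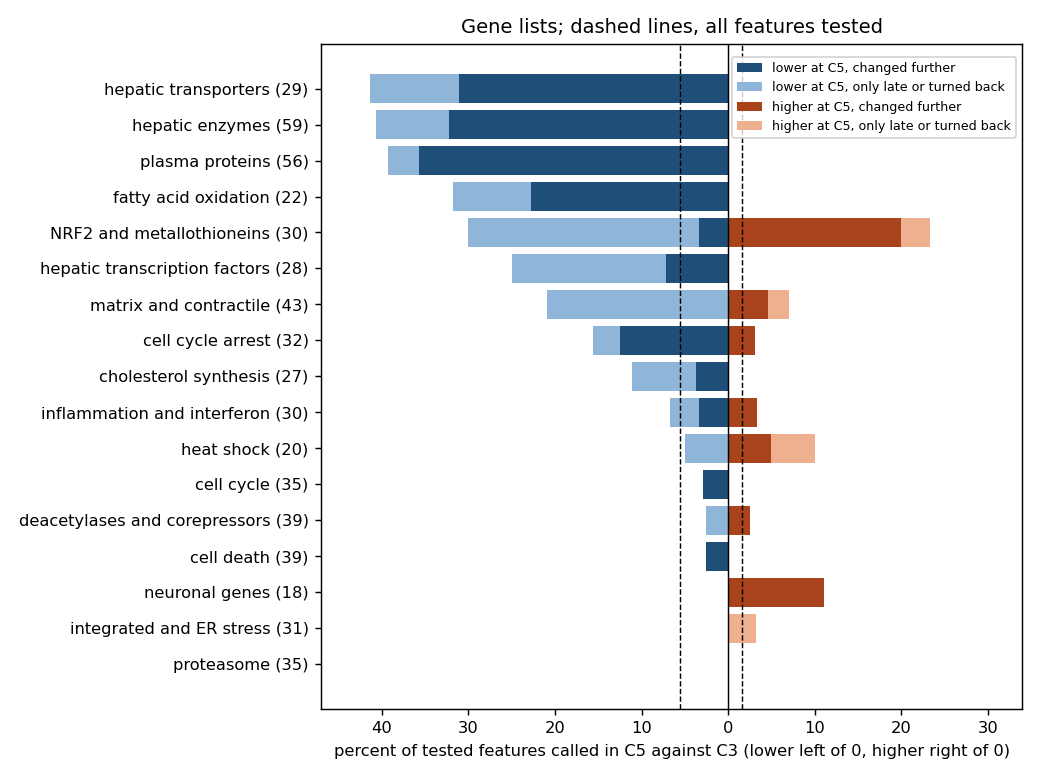
Percent of the tested features of each gene list that were called between C3 and C5, with falling features drawn left of 0 and rising features right of 0, dark for those that changed further and light for those that changed only late or turned back; the number of features tested stands in brackets. Dashed lines mark the 5.53% falling and 1.6% rising among all features tested. The falling features were 24 of 59 for the hepatic enzymes, 12 of 29 for the transporters and 22 of 56 for the plasma proteins.

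Genes of oxidant and metal defence changed in both directions. Of 30 features of this list, 7 rose, 9 fell and 14 were not called, against 1.6% rising and 5.53% falling over all features tested. MT2A, a metallothionein, which binds zinc and copper, was at 251, 497 and 399 CPM at C3 and 1073, 1247 and 1301 CPM at C5 (log2 change 1.66, SE 0.22, edgeR adjusted p = 0.000257), after a mean of 56.1 CPM at C1. MT1A, MT1E and MT1M, named after their values were seen, rose by 2.26, 1.23 and 0.97 on the log2 scale, and reads of these similar genes may not be fully separated. SRXN1 rose by 1.16, PRDX1, which acts on peroxides, by 1.45, and GCLC, of glutathione synthesis, by 0.85. Among the aldo-keto reductases, besides AKR1B10, AKR1C1 was at 248, 281 and 307 CPM at C3 and 67.5, 66.2 and 74.1 CPM at C5 (log2 change -2.01, SE 0.20, adjusted p = 1.97e-05), and AKR1C2 was at 885 to 1132 CPM and 183 to 272 CPM. AKR1C2 counted as changed only late, and as turned back without the libraries that stood apart (early log2 change 0.86, adjusted p = 0.0013). The AKR1C genes are near-identical, so their probes are not independent of each other. Both NQO1 features and both TKT features, named after their values were seen, also fell, and none of these 4 had a call between C1 and C3.

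DHRS2, a short-chain dehydrogenase, had the smallest p among the features that rose further. It was at 10.7, 34 and 20.7 CPM at C3 and 334, 333 and 257 CPM at C5, a rise of 14.0-fold (log2 change 3.81, SE 0.36, edgeR adjusted p = 9.46e-06), after a mean of 3.42 CPM at C1. Its second probe rose by 3.27 on the log2 scale. ODC1, the rate-limiting enzyme of polyamine synthesis, was at 587, 423 and 535 CPM at C3 and 1606, 1828 and 2873 CPM at C5 (log2 change 2.03, SE 0.27, adjusted p = 0.000243). RMC1, a protein of late endosome traffic, rose from 143 to 168 CPM to 375 to 438 CPM. At these probes of the 3 genes the late slope was also steeper than the early one (adjusted p = 0.00423, 0.0235 and 0.0422), while the second probes of DHRS2 and ODC1 gave adjusted p = 0.124 and 0.356 for that difference. GDF15, a stress-induced cytokine, rose from 75.8 to 109 CPM to 251 to 308 CPM at 1 probe (adjusted p = 0.00268), and its second probe showed a log2 difference of 1.14 that did not pass (adjusted p = 0.0594). The 2 genes that rose only late with a slope difference were RAB5C, of early endosomes, and SLC7A6OS. RAB5C went from 18.5 to 27.1 CPM to 84.4 to 95.3 CPM at 1 probe, while its second probe had a log2 difference of -0.12 (adjusted p = 0.934), so the probes of this gene disagree.

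**Figure D3:**
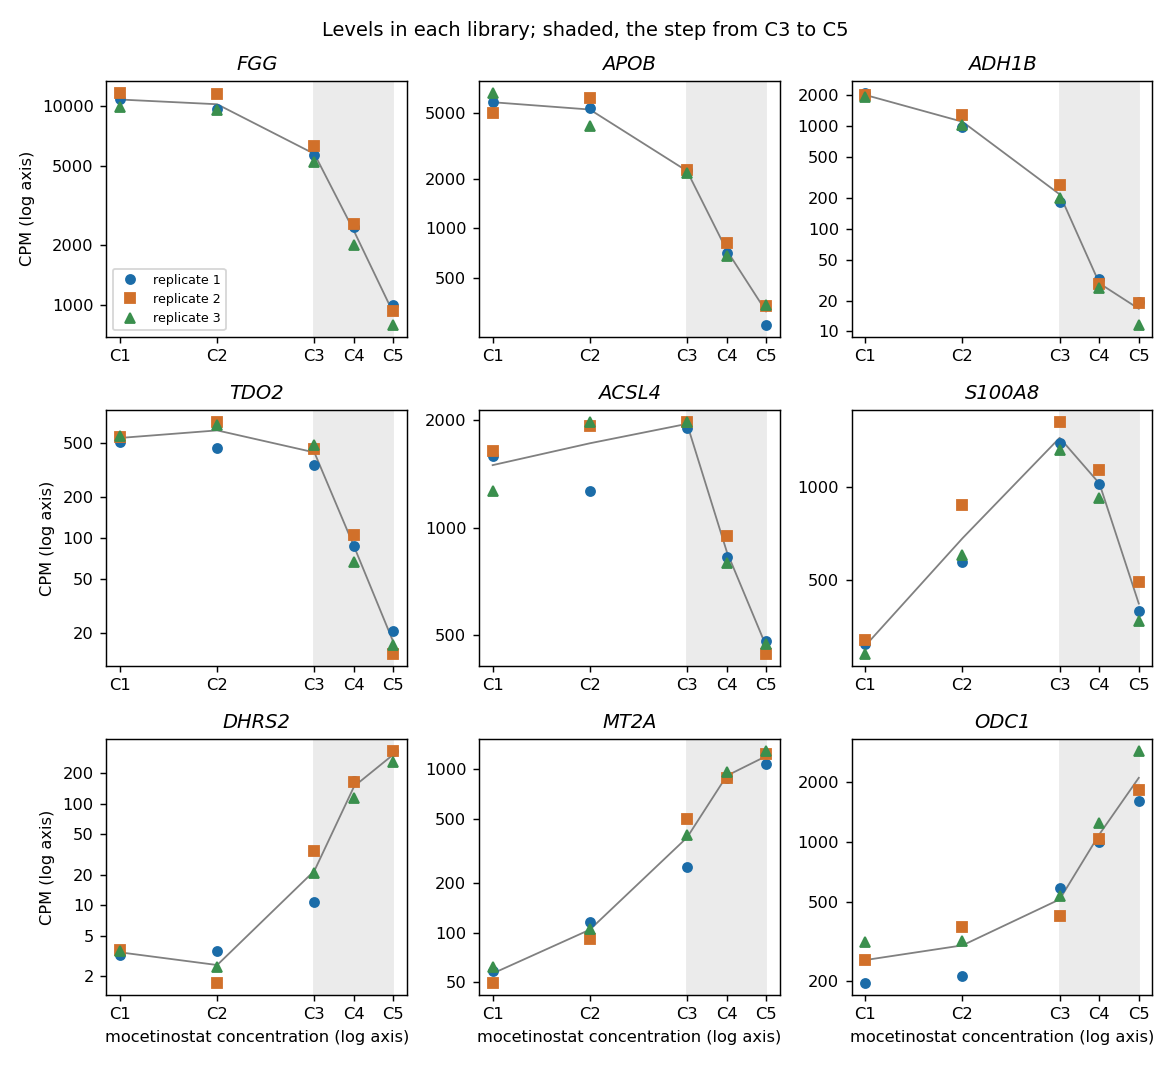
CPM (log axis) of 9 genes in each library against mocetinostat concentration from C1 to C5 (log axis), with the mean as a line and the step from C3 to C5 shaded. FGG, APOB, ADH1B and TDO2 drop steeply inside the shaded step, S100A8 rises to C3 and falls after it, and DHRS2, MT2A and ODC1 climb to their highest means at C5.

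The largest fitted rises were mostly in genes with little or no expression at C1 and C3. Their choice asked for a mean of at least 20 counts in the higher group only, which favours features with low levels at C3. PRR20G was at 16.7, 13.4 and 32.5 CPM at C3 and 212, 216 and 662 CPM at C5. DENND1C, an exchange factor for Rab proteins, was at 1.28 to 2.20 CPM at C3 and 24.5, 35.1 and 26.4 CPM at C5. MMP1, the interstitial collagenase, had no counts in 2 C3 libraries and 1.02 CPM in the third, and was at 15.0, 14.7 and 13.3 CPM in the C5 libraries. The probe for TRAV8-1, a T cell receptor segment, had at most 3 counts in each C3 library and 7.41 to 10.6 CPM at C5, at least 11.9-fold higher, in libraries where CD3E had no counts. USP17L1, ZNF556 and GOLGA6L22 rose from at most 3.29 CPM to between 6.12 and 48.7 CPM, and USP17L1 and ZNF556 each lost their call in 9 alternative settings, for ZNF556 including the replicate block. PRR20G, USP17L1 and GOLGA6L22 belong to families of near-identical copies, so their reads cannot be assigned to 1 copy. Histone deacetylase complexes are known to repress neuronal genes in other tissues, which was not tested here. Of 18 neuronal features, which cover 17 of the 37 genes listed, 2 rose and none fell (5 and none at an unadjusted p under 0.05, 4 and none with DESeq2). Over all features tested, 1.6% rose and 5.53% fell. The 2 that rose were SCG2, a secretory granule protein, at 18.4 to 20.2 CPM and 82.7 to 97.6 CPM, and SYT11 at 16.5 to 29.5 CPM and 63.2 to 82.7 CPM. SYT11 lost its call in 9 alternative settings.

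**Figure D4:**
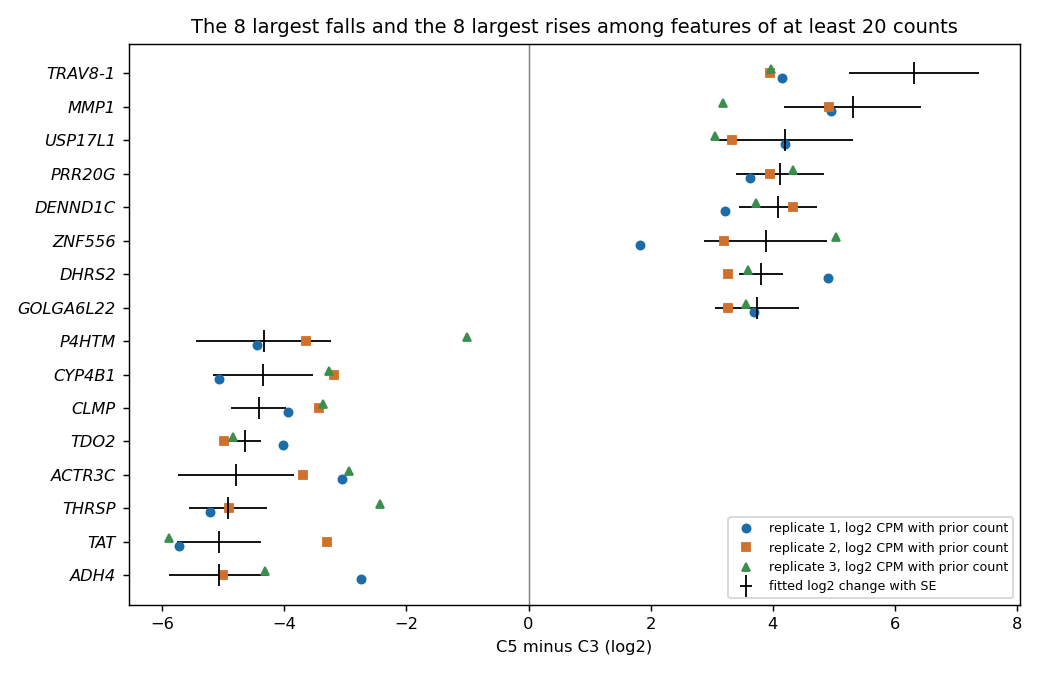
C5 minus C3 on the log2 scale for the 8 largest falls and 8 largest rises among called features with at least 20 counts and the same sign in all batches; black bars are the fitted change with its SE, and symbols are differences between libraries of the same replicate number, computed from log2 CPM with a prior count of 2, which pulls low values towards 0. The agreement in sign between batches was a condition of the choice, and the minimum of 20 counts applied to the mean of the higher group only. The fitted changes run from -5.07 for ADH4 and TAT to 6.32 for TRAV8-1.

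Some genes turned back: 26 features that had risen between C1 and C3 fell between C3 and C5, and 2 that had fallen rose. S100A8, a calcium-binding alarmin, went from a mean of 304 CPM at C1 to 1390, 1632 and 1319 CPM at C3 and back to 396, 492 and 365 CPM at C5 (log2 change -1.79, SE 0.20, edgeR adjusted p = 4.63e-05). TNC, the matrix protein tenascin, went from 131 CPM to 281, 242 and 208 CPM and then to 75.4, 70.8 and 67.2 CPM (log2 change -1.77, SE 0.22, adjusted p = 0.000161). HAGH, a glyoxalase, was at 21.0 to 25.0 CPM at C3 and 35.2 to 49.8 CPM at C5, with a mean of 39.6 CPM at C1 and a call that was lost in 11 of the alternative settings. The C2 means were 681 CPM for S100A8 and 294 CPM for TNC, and the C4 means were 1027 CPM and 155 CPM. The C2 means include the 2 libraries that stood apart. Of 43 features of matrix and contractile genes, 9 fell and 3 rose, against 5.53% falling and 1.6% rising over all features tested. Of the 9, 8 fell only late, as did 422 of all 723 falling features. The 8 included SPARC, a matrix glycoprotein, at 24.1 to 35.7 CPM and 6.22 to 6.88 CPM, and CALD1, the actin binder caldesmon, at 694 to 821 CPM and 372 to 440 CPM. Both TIMP1 features, for a metalloproteinase inhibitor, rose, the more abundant of them from 1631 to 2343 CPM to 3982 to 4573 CPM.

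Over all features tested, 5.53% fell and 1.6% rose, and the lists below are to be read against these shares. Where a list had a single call, its number of calls lay near them. Of 32 features of cell cycle arrest and p53 targets, 5 fell and 1 rose: all 3 MDM2 probes fell by 1.60 to 1.91 on the log2 scale, MDM2 being the ligase that degrades p53, and the single rise was GDF15. For XPC, 1 probe fell (adjusted p = 0.0374) and the more abundant one did not pass (log2 difference -0.43, adjusted p = 0.301), and the call was lost in 9 alternative settings. Of 35 cell cycle features, TYMS alone fell, from 242 to 320 CPM to 148 to 183 CPM, with a call lost in 7 alternative settings, and none rose (3 and none at an unadjusted p under 0.05, 3 and none with DESeq2). Of 39 features of cell death genes, TNFRSF10A alone fell, with a call lost in 11 alternative settings, the replicate block among them (9 falling and 1 rising at an unadjusted p under 0.05, 5 and none with DESeq2). In the list of integrated and endoplasmic reticulum stress genes, ASNS alone of 31 features rose, with a call lost in 9 alternative settings, and none fell (1 rising and 7 falling at an unadjusted p under 0.05, 1 and 3 with DESeq2). Of 20 heat shock features, HSPA2 and HSP90AA1 rose, HSP90AA1 from 270 to 413 CPM to 579 to 788 CPM, and HSPB8 fell from 228 to 271 CPM to 67.2 to 97.8 CPM. Of 30 features of inflammation and interferon, CCL20 rose and IFI27 and CXCL2 fell, a number of calls near the 1.6% rising and 5.53% falling over all features, and IFI27 and CXCL2 lost their call in 6 and 8 alternative settings. None of 35 proteasome features was called by edgeR, at an unadjusted p under 0.05 or by DESeq2. Among histone deacetylases of all classes, their corepressors and histone acetyltransferases, 2 of 39 features were called, near the 7.13% over all features tested. HDAC3 rose from 103 to 113 CPM at C3 to 229 to 243 CPM at C5 (log2 change 1.11, SE 0.18, edgeR adjusted p = 0.00113), and the acetyltransferase KAT2B fell from 61.8 to 73.7 CPM to 24.9 to 42.0 CPM, a call lost in 9 alternative settings.

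Either part of the step gave fewer calls than the whole. Between C3 and C4, 107 features fell and 21 rose by edgeR (1018 falling and 477 rising at an unadjusted p under 0.05, 283 and 72 with DESeq2), and between C4 and C5 (2.5 to 3.9 µM) 7 fell and none rose (632 falling and 249 rising at an unadjusted p under 0.05, 48 and 3 with DESeq2). Without the 3 libraries that stood apart, 288 fell and 81 rose between C3 and C4, and 189 fell and 18 rose between C4 and C5. The 2 steps share the C4 libraries and were not tested against each other. TDO2, for example, had a C4 mean of 86.1 CPM, between 426 CPM at C3 and 16.9 CPM at C5, and FGG had 2337 CPM at C4, between 5729 and 904 CPM.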

How the data were processed

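The authors deposited raw read counts per detector probe, as whole numbers without normalisation. The submitters' processing notes name bcl2fastq 2.20.422, fastp 0.23.2, STAR 2.7.10b and DESeq2 1.38.0 without their roles, and the genome build is not given in the sources used here. Of 22069 rows, 22068 were used. The last row, a probe for SEC13, lacked 88 values and was left out. No column of per-sample values was left unused.

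The 15 mocetinostat libraries (totals 3045318 to 5220707 counts) were fitted in R 4.3.3 with edgeR 4.0.16: filterByExpr, TMM scaling and quasi-likelihood F tests with group as the only term. P-values were adjusted by Benjamini-Hochberg over all 13065 features. Features were called where the adjusted p was below 0.05 and the change reached 1.5-fold; the test of slopes had no fold minimum. The SE is the absolute log2 change over the square root of F. A group with at most 3 counts in every library was at the floor, and folds against it are bounds that cover counting error only. Alternatives included DESeq2 1.42.0, and the code was tested on simulated data.

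The labels tie each replicate number to 1 batch of HepaRG cells, so the numbers pair the samples. In a check of this pairing, deviations from the group means correlated at a median of 0.01 in 30 pairs of libraries of the same batch and -0.004 in 60 others. The same-batch values ranged widely, from -0.373 to 0.556, so the medians do not show that batches had no effect. The paper given with these data describes another HepaRG experiment, and none of its values was used.

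Named genes were the 8 rising and 8 falling called features with the largest log2 change, the same sign in 3 batches and at least 20 mean counts, then 4 per direction with the smallest p among those that changed further and among those that changed only late with a slope difference, 2 per direction that turned back, and up to 4 per gene list (the most abundant where none was called). The minimum of 20 mean counts applied to the higher group only. The members and lists were chosen with earlier results of these data known. Results for some genes are not reported here.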

Additional observations from a re-analysis of the deposited data

How the results depend on the processing

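All named genes with a call kept their direction under each alternative that gave a value. With the replicate block, 661 features fell and 195 rose, and the 2 named genes that lost their call were TNFRSF10A and ZNF556. RLE size factors, no filter, thinning to the shallowest library, probes summed per symbol and no fold minimum left the counts within 1.5 times those reported. DESeq2 called 362 rising features, 871 that changed only late, 47 that turned back and 451 with a slope difference. A fit of the 6 libraries alone gave 437 falling features. Without the 3 libraries that stood apart, 509 rose, 1087 fell, 2524 were called between C1 and C3, 658 changed further, 859 changed only late, 79 turned back and 520 differed in slope. Leaving out single C3 or C5 libraries, or 1 replicate number at every concentration, gave 7 to 122 rising, 77 to 613 falling, 272 to 1443 called between C1 and C3, 31 to 257 that changed further, 52 to 475 that changed only late, 1 to 22 that turned back and 8 to 164 with a slope difference. The lowest value of each came from leaving out replicate 2 everywhere, which left 23 of 76 named calls. Leaving out replicate 1 or 3 everywhere left 56 and 63. The cause was not tested. TDO2, FGG, APOB, ADH1B, ADH1A, CIDEC, ACSL4, AKR1B10, SLC2A2, DHRS2, MT2A, ODC1 and S100A8 kept their call in all of these. RAB5C and XPC lost theirs with probes summed. The 3 libraries per group limit what could be called.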

Other observations

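S100A2, a calcium-binding protein, was called in the early step and not in the late one. It fell by 3.33 on the log2 scale between C1 and C3 (edgeR adjusted p = 1.82e-07), and its difference between C3 and C5 was 0.19 (adjusted p = 0.693). Its slope differed between the steps (adjusted p = 0.0099). Features that turned back, besides those described above and named after their values were seen, included S100A9, the partner of S100A8 (138 CPM at C1, 646 CPM at C3 and 312 CPM at C5, means of 3 libraries), the keratin KRT8 (431, 723 and 402 CPM), the gap junction gene GJA1 (26.0, 72.3 and 23.7 CPM) and the joint lubricant gene PRG4 (105, 231 and 79.6 CPM).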
